A study of Homo sapiens with 6 samples.

Results

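The genes of the Notch pathway examined here are the receptors NOTCH1, NOTCH2, NOTCH3 and NOTCH4, the ligands JAG1 and JAG2, and the target genes HES1, HEY1, HEY2 and NRARP. Of these 10 genes, 9 were measured among 14812 named genes, each by a single probe. HES1 is unnamed here and its level was not analysed. The genes were chosen by their known role, and the group was selected on the difference between NDRG1-depleted and control cells, in which NOTCH2 had one of the smallest p values among lower genes. The differences of these genes are therefore a description, and no test is drawn from them.

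The cultures were of SKBR3, an established breast cancer cell line with amplified HER2, carrying either an shRNA against NDRG1 (shNDRG1, labelled G8) or an shRNA against GFP (shGFP control). The methods describe stable lentiviral delivery with puromycin selection, a single NDRG1 hairpin for the arrays, and 3 independent biological replicates per group. The protocol calls the control a vector, whereas the labels name GFP. All cultures were grown in DMEM with serum. The labels of batches 2 and 3 mark the cultures as minus DFO, the iron chelator deferoxamine. Those of batch 1 read -DFO, which is taken here to mean the same. Each label carries a batch number from 1 to 3, with 1 array of either group in each batch, and batches 2 and 3 share a label day. The values are log2 intensities after a baseline was subtracted from each probe, so they hold differences between arrays and no expression level. For the same reason the identity of the line could not be checked against marker levels, and the level of a gene cannot be set against that of another.

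Notch receptors are single-pass membrane proteins that are cleaved when a Jagged or Delta-like ligand on a neighbouring cell binds them. The freed intracellular domain enters the nucleus and joins the DNA-binding protein RBPJ and a Mastermind coactivator to switch on target genes, among them the HES and HEY repressors. In breast epithelium the pathway is known for its part in luminal cell fate, and in breast cancer cells for its links to survival and proliferation.

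The promoters of NOTCH2 and JAG1, the receptor and the ligand that stood apart in opposite directions below, are shown beside those of the targets HES1 and HEY2, which carry the letters that RBPJ reads. Sequences are from RefSeq on GRCh38.p14, written 5′ to 3′ on the strand of the gene, and 9 of the 10 genes had an entry. HEY1 had none, so its promoter was not searched. Capitals mark TGGGAA, the core of the RBPJ motif, on either strand. The stretches of NOTCH2 (chr1:120069663-120069782, minus strand), JAG1 (chr20:10674000-10674119, minus strand) and HES1 (chr3:194136028-194136147, plus strand) end at the base before the annotated start, and that of HEY2 (chr6:125749402-125749641, plus strand) ends 10 bases after it.
NOTCH2: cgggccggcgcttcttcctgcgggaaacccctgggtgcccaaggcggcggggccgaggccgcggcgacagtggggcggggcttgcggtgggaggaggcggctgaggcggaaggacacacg
JAG1: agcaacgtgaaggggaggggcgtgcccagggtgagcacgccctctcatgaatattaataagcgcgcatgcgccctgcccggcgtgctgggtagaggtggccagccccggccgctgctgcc
HES1: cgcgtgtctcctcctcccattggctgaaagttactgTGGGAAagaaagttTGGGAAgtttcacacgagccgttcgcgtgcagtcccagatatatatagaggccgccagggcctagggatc
HEY2: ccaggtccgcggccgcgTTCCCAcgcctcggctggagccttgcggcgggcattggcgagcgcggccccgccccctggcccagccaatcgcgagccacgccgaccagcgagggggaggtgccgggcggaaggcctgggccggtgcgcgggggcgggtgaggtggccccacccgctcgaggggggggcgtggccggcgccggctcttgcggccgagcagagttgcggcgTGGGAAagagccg
In windows from 250 bases before to 50 bases after the start, TGGGAA on either strand occurred in HES1 with 2 matches, at -84 and -70 on the gene's strand, and in HEY2 with 2 matches, at -213 on the other strand and across the start at -3. It did not occur in the windows of the 4 receptors, JAG1, JAG2 or NRARP. Of all 35116 promoter windows of the same length, 24% held the motif. The E-box CACGTG, the palindrome bound by several basic helix-loop-helix factors, occurred in 0 of the 9 windows and in 7.26% of all windows. The exact letters TATAAA of the TATA box, searched on both strands, occurred in NRARP alone of the 9, at -41, and in 11.5% of all windows. Other forms of the TATA box were not searched. These matches are letters in a fixed window and not evidence of binding.

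The silenced gene was lower in every batch. NDRG1 stood at -0.77 (batch 1), -0.74 (batch 2) and -1.09 (batch 3) under shNDRG1 and at 0.02, 0.42 and -0.02 in control cells. All shNDRG1 arrays lay below all control arrays, with a log2 difference of -1.01 (limma standard error 0.16, adjusted p = 0.652 over all genes), or 2.01-fold. In the limma fit that pairs the arrays by batch, the standard error was 0.088 and the adjusted p 0.289. From limma, 0 of the 14812 genes passed an adjusted p of 0.05, which is 0% of the genes, against 631 at an unadjusted p under 0.05, or 4.26%. Of all genes, 2.69% were higher and 1.57% were lower at this unadjusted threshold. With the batch as a replicate block, 1399 genes, or 9.45%, had an unadjusted p under 0.05 and 0 passed after adjustment. The 2 arrays of a batch shared deviations from the means of their groups in batches 1 and 2, but little in batch 3. Their correlation over all genes was 0.785 in batch 1, 0.833 in batch 2 and 0.163 in batch 3, and over the 9 Notch genes it was 0.815, 0.846 and 0.360. Both arrays of batch 2 were the most spread, with an SD over genes of 0.29 and 0.35 against 0.13 to 0.16 in the other 4.

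NOTCH2, the receptor around which the comparison was built, was lower in shNDRG1 cells by nearly the same amount in every batch. It stood at -0.28, -0.22 and -0.23 in the shNDRG1 arrays (batches 1, 2 and 3) and at 0.13, 0.18 and 0.17 in control cells. The groups did not overlap, and the gap between them was 0.36. Within the batches the log2 difference was -0.41, -0.41 and -0.41, a mean of -0.41 ± 0.0040 (SD, n = 3 batches), or 1.33-fold lower. The 3 control arrays spanned only 0.049, whereas the median span over all genes was 0.22, and 8.72% of genes had a span as small. Of all genes, 0.972% had a difference as low as that of NOTCH2. NOTCH2 combined a modest difference with an unusually small spread between arrays, also in batch 2. In bulk RNA, fewer cells with a transcript and less of it per cell cannot be told apart.

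**Figure D1:**
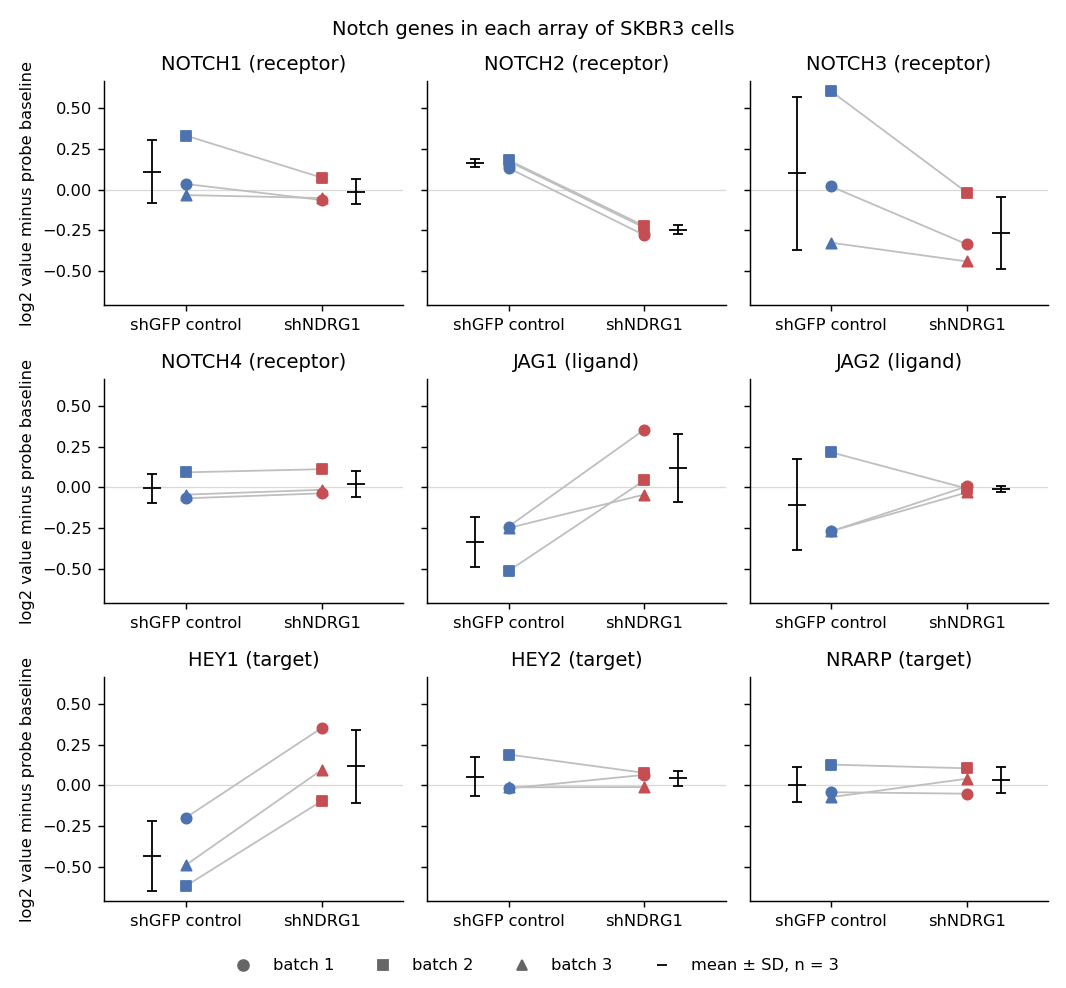
Value of each measured Notch gene (y axis, log2 value minus the probe's baseline) in every array, with shGFP control in blue, shNDRG1 in red, marker shapes for batches, grey lines joining arrays of the same batch and black marks for the mean ± SD (n = 3). The groups are separate for NOTCH2, JAG1 and HEY1 and overlap for the other 6 genes.

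NOTCH3, a receptor known mainly from vascular smooth muscle and also active in breast cancer cells, had a mean difference close to that of NOTCH2 but with a much wider spread. It stood at -0.34, -0.02 and -0.44 in the shNDRG1 arrays (batches 1, 2 and 3) and at 0.02, 0.61 and -0.33 in control cells. The groups overlapped, because the control array of batch 3 lay below the shNDRG1 array of batch 2. The log2 difference was -0.36, -0.62 and -0.12 within the batches, a mean of -0.37 ± 0.25 (SD, n = 3 batches). Its control arrays spanned 0.93, and 94.2% of all genes had a span as small or smaller. Without the control array of batch 2 the mean difference was -0.11, and without the control array of batch 3 it was -0.58. Leaving out a single array keeps its partner of the same batch, so these values also hold shifts between batches. Without both arrays of batch 2 the mean difference was -0.24, and without both of batch 3 it was -0.49.

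NOTCH1, the receptor first tied to T cell leukaemia, stood at -0.06, 0.07 and -0.05 in shNDRG1 cells and at 0.03, 0.33 and -0.03 in control cells. Its groups overlapped, with log2 differences of -0.10, -0.26 and -0.02 in batches 1, 2 and 3 and a mean of -0.13 ± 0.12 (SD, n = 3 batches). Without the control array of batch 2, which was the highest of the 6, the mean was -0.01. Without both arrays of batch 2 it was -0.06.
NOTCH4, a receptor best known from endothelium, stood at -0.04, 0.11 and -0.01 in shNDRG1 cells and at -0.07, 0.09 and -0.04 in control cells. Both groups covered nearly the same range, and the array of batch 2 was the highest in each. The log2 difference was 0.03, 0.02 and 0.03 within the batches, a mean of 0.03 ± 0.0063 (SD, n = 3 batches), as even between batches as that of NOTCH2 but close to 0.

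Set against the other receptors, NOTCH2 was lower relative to NOTCH1 and NOTCH4 but not distinguishable from NOTCH3. NOTCH2 minus NOTCH4 differed between the groups by -0.44, -0.42 and -0.44 on the log2 scale in batches 1, 2 and 3. For NOTCH2 minus NOTCH1 these differences were -0.31, -0.15 and -0.39. For NOTCH2 minus NOTCH3 they were -0.06, 0.22 and -0.29, with a mean of -0.04 ± 0.26 (SD, n = 3 batches), so the sign turned with the batch. Relative to the mean of the other 3 receptors, the difference of NOTCH2 was -0.27, -0.12 and -0.37, a mean of -0.25 ± 0.13 (SD, n = 3 batches), and the groups overlapped. It was -0.38 without the control array of batch 2 and -0.15 without that of batch 3, the control arrays with the highest and the lowest value of NOTCH3. Without both arrays of batch 2 it was -0.32, and without both of batch 3 it was -0.19.

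**Figure D2:**
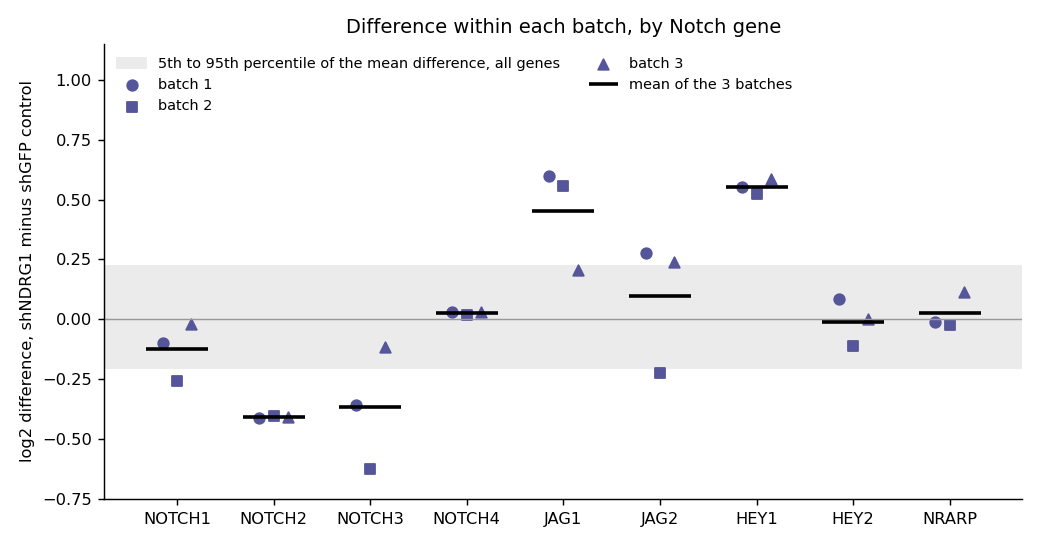
Log2 difference between shNDRG1 and shGFP control (y axis) within each batch for the 9 measured Notch genes, with marker shapes for batches, a black line for the mean and a grey band from the 5th to the 95th percentile of the mean difference of all genes. The markers of NOTCH2, NOTCH4 and HEY1 lie close together, whereas those of NOTCH3, JAG1 and JAG2 spread widely.

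The ligand JAG1, which activates Notch on neighbouring cells, was higher in shNDRG1 cells, opposite to NOTCH2. It stood at 0.36, 0.04 and -0.04 in the shNDRG1 arrays (batches 1, 2 and 3) and at -0.24, -0.51 and -0.25 in control cells. The groups did not overlap and were 0.20 apart. The log2 difference was 0.60, 0.56 and 0.21 within the batches, a mean of 0.45 ± 0.22 (SD, n = 3 batches), or 1.37-fold higher. The highest shNDRG1 array was that of batch 1, and without it the mean difference was 0.33. Without both arrays of batch 1 the mean difference was 0.38.
JAG2, a second Jagged ligand, gave no such separation. Its shNDRG1 values were 0.01, -0.01 and -0.03 and its control values -0.27, 0.22 and -0.27 in batches 1, 2 and 3. The control array of batch 2 lay above all shNDRG1 arrays and the other 2 control arrays below them. The log2 difference was therefore 0.28, -0.22 and 0.24, a mean of 0.10 ± 0.28 (SD, n = 3 batches). It was 0.26 without the control array of batch 2, and also 0.26 without both arrays of that batch.

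Among the target genes, HEY1 was higher in shNDRG1 cells while HEY2 and NRARP stayed near 0. HEY1, a basic helix-loop-helix repressor induced by Notch, stood at 0.35, -0.10 and 0.10 in the shNDRG1 arrays (batches 1, 2 and 3) and at -0.20, -0.62 and -0.49 in control cells. The groups did not overlap, but only 0.10 separated the lowest shNDRG1 array from the highest control array. Within the batches the log2 difference was 0.55, 0.52 and 0.59, a mean of 0.55 ± 0.032 (SD, n = 3 batches), or 1.47-fold higher. HEY1 shifted from batch to batch in both groups alike, and its difference was the largest in size of the 9 Notch genes.

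HEY2, the relative of HEY1 known from heart and vessel development, stood at 0.07, 0.08 and -0.01 in shNDRG1 cells and at -0.02, 0.19 and -0.01 in control cells. The control arrays spanned more than the shNDRG1 arrays and overlapped them fully. The log2 difference was 0.08, -0.11 and 0.0013 within the batches, a mean of -0.01 ± 0.099 (SD, n = 3 batches).
NRARP, an ankyrin repeat protein that is induced by Notch and limits its signal, stood at -0.05, 0.11 and 0.04 in shNDRG1 cells and at -0.04, 0.13 and -0.07 in control cells. Its groups overlapped, with log2 differences of -0.01, -0.02 and 0.11 in batches 1, 2 and 3 and a mean of 0.03 ± 0.075 (SD, n = 3 batches).

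The mean of the 3 measured targets was higher by 0.21, 0.13 and 0.23 within the batches. Because HEY2 and NRARP were near 0, this mean was carried by HEY1. NOTCH2 minus the mean of the targets stood at -0.40, -0.25 and -0.28 in shNDRG1 cells and at 0.22, 0.28 and 0.37 in control cells, with no overlap. The difference was -0.62, -0.53 and -0.64 on the log2 scale within the batches, a mean of -0.60 ± 0.057 (SD, n = 3 batches).

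In all, 3 of the 9 genes were lower in all 3 batches (NOTCH1, NOTCH2 and NOTCH3), 3 were higher in all 3 (NOTCH4, JAG1 and HEY1) and 3 went both ways. Over all genes, 12.5% were lower and 17.1% higher in all 3 batches. In 1 of the 9 genes all shNDRG1 arrays lay below all control arrays, against 3.21% of all genes, and in 2 all lay above, against 5.14%. Of the 9 genes, 1 was lower and 2 were higher when p was under 0.05 before adjustment, against 1.57% and 2.69% of all genes. From limma 0 of the 9 passed an adjusted p of 0.05. With the batch as a replicate block 2 were lower and 2 higher, NOTCH3 being the addition, against 9.45% of all genes in either direction, and 0 passed. The median log2 difference of the 9 genes was 0.03, against 0.0070 for all genes. As the genes were chosen with this contrast in view, nothing is read from these counts.

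**Figure D3:**
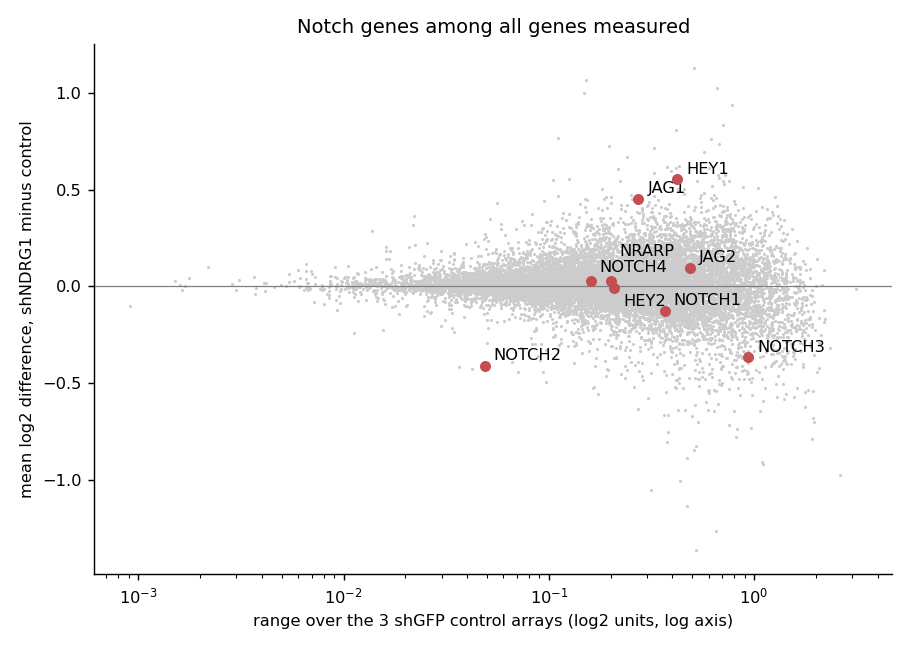
Mean log2 difference between shNDRG1 and shGFP control (y axis) against the span of the 3 control arrays (x axis, log2 units on a log axis) for all 14812 genes in grey and the 9 Notch genes in red. NOTCH2 lies at a control span of 0.049 and NOTCH3 at 0.93, with similar differences of -0.41 and -0.37.

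The wider pathway was examined with a list of 70 further genes set by their known role, of which 54 were measured and named. Of these 29, or 53.7%, were above and 25 below the control, against 53.6% of all genes above it. The median log2 difference was 0.0071 against 0.0070 for all genes. From limma 0 passed an adjusted p of 0.05 in either direction. Before adjustment 2 had a p under 0.05 and were higher, and 0 were lower, or 3.70% of the list, near the 4.26% of all genes. With the batch as a replicate block these counts were 4 and 0, or 7.41% against 9.45%. In 2 of the 54 genes, or 3.70%, all shNDRG1 arrays lay above all control arrays, against 5.14% of all genes, and in 1, or 1.85%, all lay below, against 3.21%.

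Both genes with an unadjusted p under 0.05 in the fit without the replicate block were targets of Notch in other settings. SOX9, a transcription factor of progenitor cells, stood at -0.20, 0.46 and 0.20 in the shNDRG1 arrays (batches 1, 2 and 3) and at -0.71, -0.33 and -0.35 in control cells. Its log2 difference was 0.62 (limma standard error 0.20, adjusted p = 0.9999), with 0.51, 0.79 and 0.55 within the batches. From limma with the replicate block, the standard error was 0.076 and the adjusted p 0.304. MYC, a growth-promoting transcription factor and a direct Notch target in T cell leukaemia, stood at 0.01, 0.57 and 0.51 in shNDRG1 cells and at -0.27, -0.01 and -0.04 in control cells. Its log2 difference was 0.47 (limma standard error 0.17, adjusted p = 0.9999), with 0.28, 0.59 and 0.55 within the batches. From limma with the replicate block, the standard error was 0.081 and the adjusted p 0.318. Both genes were higher in all 3 batches with no overlap between groups, and neither passed after adjustment. The gap between groups was 0.13 for SOX9 and only 0.028 for MYC. The other 7 measured targets of the list had differences from -0.22, of the cyclin gene CCND1, to 0.04, of HES5. HES4 was at -0.06 and HEYL at -0.04.

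The machinery that makes, cuts and reads the receptors showed no gene past the unadjusted threshold in the fit without the replicate block. Of 8 genes of receptor cleavage 7, or 87.5%, were above the control, against 53.6% of all genes. Their median log2 difference was 0.11, and whether so few genes differ from that share was not tested. Among them ADAM10, the protease that makes the ligand-induced cut, had a difference of 0.18, with 0.18, 0.50 and -0.14 within the batches. Its limma standard error was 0.39, or 0.13 with the replicate block. NCSTN, a subunit of gamma-secretase, was at 0.08 (standard error 0.10) and APH1A, another subunit, at 0.21 (standard error 0.22, or 0.069 with the replicate block). APH1A had an unadjusted p of 0.0331 and an adjusted p of 0.475 from limma with the replicate block, and MAML2, a Mastermind coactivator, of 0.0322 and 0.475. The fringe glycosyltransferase LFNG, which alters the ligand preference of Notch, was at -0.17 (standard error 0.096), and the O-fucosyltransferase POFUT1 at 0.16 (standard error 0.12).

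In the nucleus, RBPJ itself had a log2 difference of 0.08 (limma standard error 0.17, or 0.075 with the replicate block) and MAML1 of -0.02 (standard error 0.11). The acetyltransferase gene CREBBP, a coactivator of the complex, was the gene of the list with all shNDRG1 arrays below all control arrays, at -0.16 (standard error 0.074). Only 0.0029 separated its groups, and its difference in batch 2 was -0.016. Of 11 ubiquitin ligases and endocytic regulators 4, or 36.4%, were above and 7 below the control, against 53.6% of all genes above it. NUMB, an endocytic inhibitor of Notch, was at -0.13 (standard error 0.079). MIB1, the ligase that drives ligand endocytosis, was at -0.08 (standard error 0.38, or 0.11 with the replicate block). Among the 6 other ligands differences ran from -0.10 to 0.09, and that of DLL1 was -0.02.

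**Figure D4:**
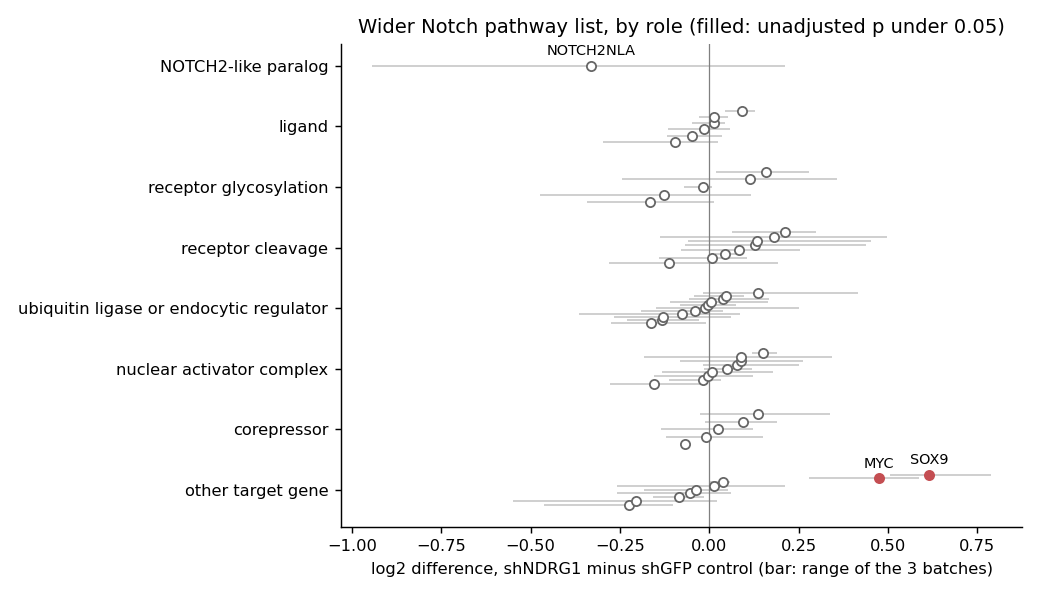
Mean log2 difference between shNDRG1 and shGFP control (x axis) of the 54 measured genes of the wider Notch list, in rows by role, with a grey bar for the range of the 3 batches and filled points for an unadjusted p under 0.05. SOX9 and MYC are the 2 filled points, at 0.62 and 0.47, from the fit without the replicate block.

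NOTCH2NLA, a human-specific copy of the first part of NOTCH2, is nearly identical to NOTCH2 over the shared exons, so its probe and that of NOTCH2 may be hard to keep apart. Its values varied far more between arrays than those of NOTCH2, and whether the probes read the same transcripts was not tested. It stood at -0.13, -0.93 and -0.39 in the shNDRG1 arrays (batches 1, 2 and 3) and at 0.13, -1.14 and 0.56 in control cells. The log2 difference was -0.26, 0.21 and -0.94 within the batches, and both arrays of batch 2 were the lowest of their group. Its mean was -0.33 (limma standard error 0.48, or 0.23 with the replicate block), of the same sign as that of NOTCH2. Of all genes, 1.68% had a difference as low. The control arrays spanned 1.70, and the groups overlapped. Of 5 NOTCH2-like paralogs listed, 1 was measured.

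The genes whose values were most like those of NOTCH2 were found by the root mean square distance between gene-centred values over the 6 arrays, which share the same contrast. The closest was DNMT3B, a de novo DNA methyltransferase, at a distance of 0.026 log2 units, followed by DYM, a Golgi gene, at 0.044, the mitochondrial MTARC1 at 0.050, the neuropeptide receptor gene NPY4R at 0.051 and the acyl-CoA synthetase gene ACSL5 at 0.063. All were lower in every batch, with mean log2 differences of -0.42, -0.42, -0.33, -0.35 and -0.44 in that order. This follows from their choice by closeness to NOTCH2 and is no separate result. NPY4R has a near-identical copy in the genome and its value is uncertain. No other Notch gene lay near NOTCH2 by this measure. The closest was NOTCH1 at 0.18, with 1141 genes nearer to NOTCH2, and NOTCH3 lay at 0.30, with 10910 genes nearer. The distance also counts the spread between arrays. HEY2, with a mean log2 difference of only -0.01, lay at 0.21 and so nearer than NOTCH3. These ranks therefore do not order genes by how alike their differences are.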

How the data were processed

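RNA of 6 SKBR3 cultures was measured on Affymetrix Gene 2.0 ST arrays. The authors checked quality in Affymetrix Expression Console, quantile normalized with PLIER in GeneSpring and subtracted a per-probe baseline. The deposited values are read as log2, although no source used here states the base. As baseline the methods name the control samples' median, which was 0 (to within 1e-05) in only 0.341% of 44629 probes, whereas the median of all 6 arrays was 0 in 26.8%. Which samples set the baseline is unknown, and it cancels in differences.

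A platform table gave 1 symbol for 15835 probes, standing for 14812 genes, and probes of a gene were averaged. Another 28794 probes are unnamed here. Columns of per-sample values left out numbered 0. Genes were fitted with limma 3.58.1 in R 4.3.3 (lmFit, eBayes, no covariate, all 6 arrays) with Benjamini-Hochberg adjustment and a threshold of 0.05. The batch number was taken as pairing the arrays, as the labels give it, and the fit with this replicate block was an alternative. The fitting was tested on simulated data. The number of arrays limits the precision.

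The Notch genes, the wider list and the tests were chosen with earlier results of these data known. Named genes are NDRG1, the members, genes of the wider list at an unadjusted p under 0.05, fixed anchors by role, and the 5 genes closest to NOTCH2. An anchor that is not named here is not reported. APH1A, MAML2, CREBBP, CCND1, HES5 and NOTCH2NLA were added after their values were seen. Plots used matplotlib 3.10.9 (Python 3.11.15).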

Additional observations from a re-analysis of the deposited data

How the results depend on the processing

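Under 17 alternatives, several of which could not change a difference, the log2 difference of NOTCH2 stayed below 0, from -0.49 to -0.39. It was -0.49 after quantile normalization again, and -0.42 to -0.39 without single arrays or batches. Relative to the other receptors it ranged from -0.38 to -0.15, both without single arrays. Without whole batches it ranged from -0.32 to -0.19. Relative to the target genes it was -0.72 after quantile normalization again and -0.63 to -0.55 without single arrays or batches. NDRG1 ranged from -1.11 to -0.87. NOTCH1 and NOTCH3 stayed below 0, and JAG1, JAG2 and HEY1 above it, under all 17. Of the 17, the fits with a block, with trended and robust variance, or with the probe of largest range could not change these differences. Every block held as many arrays of either group, and each of these genes had a single probe. JAG1 was 0.26 with array weights. NOTCH4 was below 0 in 2 alternatives and NRARP in 3, and HEY2 was above 0 in 5.

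No Notch gene of either list passed an adjusted p of 0.05 in any of the fits. Over all genes, 4 were higher and 1 lower with array weights, and 1 was lower with the replicate block and trended and robust variance, chosen after seeing the data. All other fits, and a threshold of 0.1, called 0 from limma, at 291 to 1399 genes with an unadjusted p under 0.05. These genes numbered 2939, or 19.8% of all, with array weights and 1438, or 9.71%, with the replicate block and that variance model. In the wider list, genes higher at an unadjusted p under 0.05 numbered 4 with the replicate block, with or without that variance model, 5 with array weights, and 0 to 3 without single arrays or batches. They were 0 without the shNDRG1 array of batch 2, the shNDRG1 array of batch 3 or both arrays of batch 3. Genes lower numbered 2 with array weights, 1 with the replicate block and that variance model, and 0 to 1 without single arrays or batches. In either direction the list held 13.0% with array weights and 9.26% with the replicate block and that variance model, against 19.8% and 9.71% of all genes. Without single arrays or batches it held 0% to 7.41%, against 1.96% to 6.87% of all genes. The cause was not tested. With 3 arrays per group a two-sided exact permutation test cannot go below p = 0.1.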
